A study of Mus musculus with 2 samples.

Results

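The genes described here encode the mitochondrial respiratory chain and ATP synthase, with the assembly factors that carry the same names. They were taken by name as every array identifier that starts with Nduf, Uqcr, Cox and a digit, or Atp5. Sdha, Sdhb, Sdhc and Sdhd were added. The rule uses no measured value, although earlier results of these data were known when it was chosen. It gave 87 of the 30774 gene identifiers on the array. Of these, 36 belonged to complex I, 4 to complex II, 7 to complex III, 24 to complex IV and 16 to complex V. Of the 87, 75 are subunits and 12 are assembly factors or other proteins that carry such a name. Ndufa4 was placed in complex IV, where its protein is now known to reside. The arrays compared mouse embryonic stem cells (mESCs) of the B6 strain kept in serum medium with LIF, which signals through Stat3, and such cells given LIF plus CHIR99021 (CHIR), which blocks GSK3 and so stabilizes β-catenin, the effector of Wnt signaling. Total RNA came from cells with or without CHIR for 12 h, and 1 beadchip array was hybridized for each condition. No genetic change separates the groups, both groups received LIF, and the labels give E3.5 embryos and the inner cell mass as the origin of the cells. The culture methods of the study name an mESC line other than B6, and the labels do not say whether the B6 cells were 1 clone.

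The respiratory chain passes electrons from NADH (complex I) and succinate (complex II) through ubiquinone to complex III, then by cytochrome c to complex IV, where oxygen is reduced to water. Complexes I, III and IV pump protons across the inner mitochondrial membrane, and complex V, the ATP synthase, lets them flow back to make ATP. A few catalytic subunits are encoded by mitochondrial DNA and all others by nuclear genes, many of whose promoters hold sites for Nrf1, for ETS factors such as Gabpa, or for Yy1. Mouse ESCs in the naive state are known to use oxidative phosphorylation beside glycolysis, and Stat3 and Esrrb have been linked to it.

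As the nuclear subunits are often described as sharing promoter sites, those sites were counted in RefSeq promoter windows (GRCm38.p6) of 300 bases, from 250 bases before the transcription start to 50 after it. The table held 76 windows for 70 of the 87 genes. The NRF1 core, searched as GCGCANGCG on both strands, was present in 20 of the 76 windows (26.3%), against 6.25% of all 32851 windows and 13.1% of the 6818 windows of genes that entered the array comparison. It was in 8 of 34 windows of complex I, 2 of 3 of complex II, 2 of 4 of complex III and 7 of 19 of complex V. Complex IV had it in 1 of 16 windows (6.25%), that of Cox6a1, so the higher share did not extend to that complex. The ETS core CCGGAAG was in 18 windows (23.7%), against 8.86% of all windows and 19.2% of those of entered genes, so its share lay near that of expressed genes in general. The YY1 core GATGGCGGC was in 9 windows (11.8%), against 1.03% and 2.71%. Of these windows, 6 were of complex I, 1 of complex IV (Cox10) and 2 of complex V (both Atp5sl). Cox10 and Atp5sl are not subunits, so among subunits only genes of complex I held the YY1 core. At least 1 of the 3 cores was present in 39 windows (51.3%), against 14.6% and 30.7%. These are matches of letters, not sites shown to be bound. The bases before the transcription start are shown for 4 genes, with each match in capitals. Atp5g2 and Atp5d are the members with a signal of 1000 or more that had the lowest and the highest fold change, Cox6a1 holds both the NRF1 and the ETS core, and Uqcrh has an ETS core close to its start. The Atp5g2 window is chr15:102671048-102671297 on the minus strand, with the NRF1 core beginning 42 bases before the start. The Cox6a1 window is chr5:115348959-115349208 on the minus strand, with NRF1 cores beginning at 162 and 117 bases and an ETS core at 16 bases. The Uqcrh window is chr4:116075071-116075320 on the minus strand, with an ETS core at 10 bases. The Atp5d window is chr10:80142025-80142274 on the plus strand, in which none of these letters was found.
Atp5g2: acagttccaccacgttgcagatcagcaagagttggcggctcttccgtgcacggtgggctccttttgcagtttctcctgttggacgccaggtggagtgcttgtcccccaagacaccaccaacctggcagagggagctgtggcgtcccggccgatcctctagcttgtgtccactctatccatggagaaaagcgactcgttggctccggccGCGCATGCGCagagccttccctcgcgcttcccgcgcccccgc
Cox6a1: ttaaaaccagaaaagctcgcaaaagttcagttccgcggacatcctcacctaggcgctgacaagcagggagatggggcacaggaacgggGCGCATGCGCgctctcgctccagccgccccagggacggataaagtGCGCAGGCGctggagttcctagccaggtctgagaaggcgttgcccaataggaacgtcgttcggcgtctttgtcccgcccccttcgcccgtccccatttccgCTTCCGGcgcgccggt
Uqcrh: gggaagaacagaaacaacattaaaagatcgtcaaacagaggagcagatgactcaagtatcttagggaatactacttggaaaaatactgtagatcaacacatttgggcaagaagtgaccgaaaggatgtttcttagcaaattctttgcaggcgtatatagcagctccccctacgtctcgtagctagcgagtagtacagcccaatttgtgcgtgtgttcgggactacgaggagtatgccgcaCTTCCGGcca
Atp5d: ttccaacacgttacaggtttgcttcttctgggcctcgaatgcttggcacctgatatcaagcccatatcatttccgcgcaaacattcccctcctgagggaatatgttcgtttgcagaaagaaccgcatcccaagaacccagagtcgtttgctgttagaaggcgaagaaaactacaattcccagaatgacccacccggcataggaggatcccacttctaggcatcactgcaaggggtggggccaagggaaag

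The deposited values are signal intensities, the brightness of the beads for an identifier on a linear scale after background subtraction, each with a detection p-value against negative control beads. Over all identifiers the median signal was 10.5 (LIF) and 10.45 (LIF plus CHIR). An identifier counted as detected with a detection p-value under 0.01, and entered the comparison if detected on at least 1 array, as 9615 identifiers were. Since each condition had a single array, the spread between cultures was not measured and differences carry no p-value. Pou5f1, a marker of ESCs, had a signal of 12346 (LIF) and 11309 (LIF plus CHIR), and Zfp42 and Nanog were also detected on both arrays. Sox2 was not detected, although its signal was 441.2 and 400.2, and Tdgf1 was near background (26.6 and 14.6). Of the fibroblast markers, Col1a1, Col1a2 and Col3a1 had signals of at most 24.7, and Thy1 had 222.3 and 225.3 without being detected. Axin2, a feedback target of Wnt/β-catenin signaling, was at 314.1 (LIF) and 1178 (LIF plus CHIR), a log2 fold change of 1.91.

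Of the 87 respiratory chain genes, 61 entered the comparison, and each had a signal in LIF plus CHIR within 1.5-fold of that in LIF. The count past 1.5-fold was 0 of 61 in each direction, while among all entered identifiers 4.11% passed that limit upwards and 4.02% downwards. In such bulk RNA, fewer cells with a transcript and less of it per cell cannot be told apart. Most of these genes were bright, and the log2 fold changes of bright identifiers had a standard deviation of 0.22, against 0.37 over all entered identifiers. Where the brighter signal was 1000 or more, 2.20% of 3269 identifiers passed 1.5-fold in either direction, and 0 of the 54 respiratory chain genes in that range did. The log2 fold changes of the 61 genes ran from -0.24 (Atp5g2) to 0.35 (Atp5a1), with a median of 0.04, and 37 of them lay above 0. The median over all 9615 identifiers was 0.0009, and 50.2% lay above 0.

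**Figure D1:**
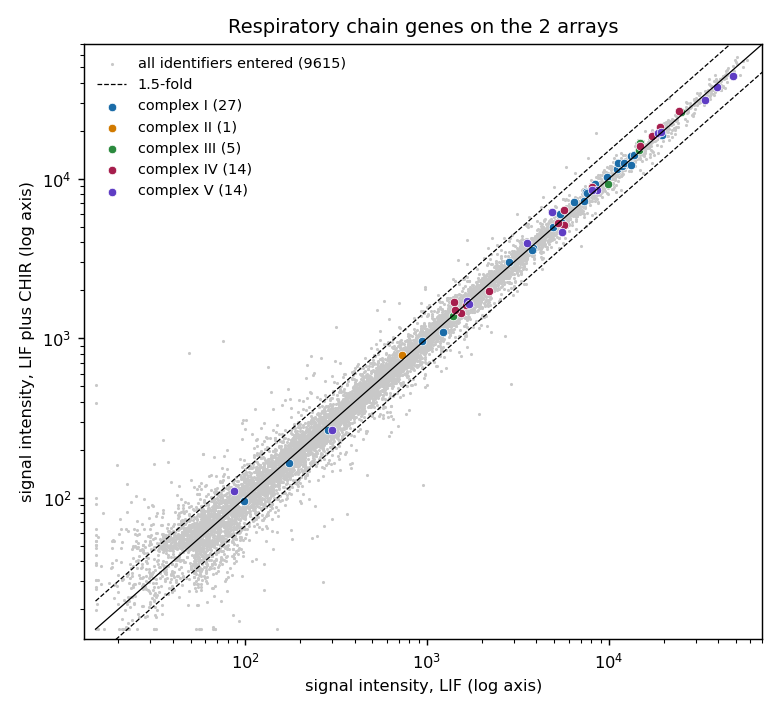
Signal intensity in LIF (x) and in LIF plus CHIR (y), both on log axes, for the 9615 identifiers that entered the comparison (grey, drawn at no less than 15) and for the 61 respiratory chain genes among them (coloured by complex). Dashed lines mark 1.5-fold, and none of the 61 genes lies outside them.

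A limit of 1.2-fold, a log2 fold change of 0.263, also left 59 of the 61 genes (96.7%) inside. The same limit held 72.1% of all entered identifiers and 88.0% of those with a brighter signal of 1000 or more. The 1.2-fold limit was passed upwards by 14.0% of all identifiers and 5.78% of the bright ones, and downwards by 13.9% and 6.24%. Among the respiratory chain genes, 2 were at least 1.2-fold higher, Atp5a1 and Atp5d, and 0 were 1.2-fold lower. Both encode subunits of the F1 part of ATP synthase, Atp5a1 in its head and Atp5d in the central stalk. The standard deviation of the log2 fold changes was 0.11 over the 54 bright respiratory chain genes. That of all bright identifiers includes extreme genes, from -2.5 (Gadd45g) to 1.9 (Axin2). The quartiles were closer, at -0.06 and 0.12 for the 54 genes and -0.10 and 0.10 for all bright identifiers. The median absolute log2 fold change was 0.08 against 0.10. These figures describe the arrays, since genes are not replicates and the difference between the groups of genes was not tested.

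**Figure D2:**
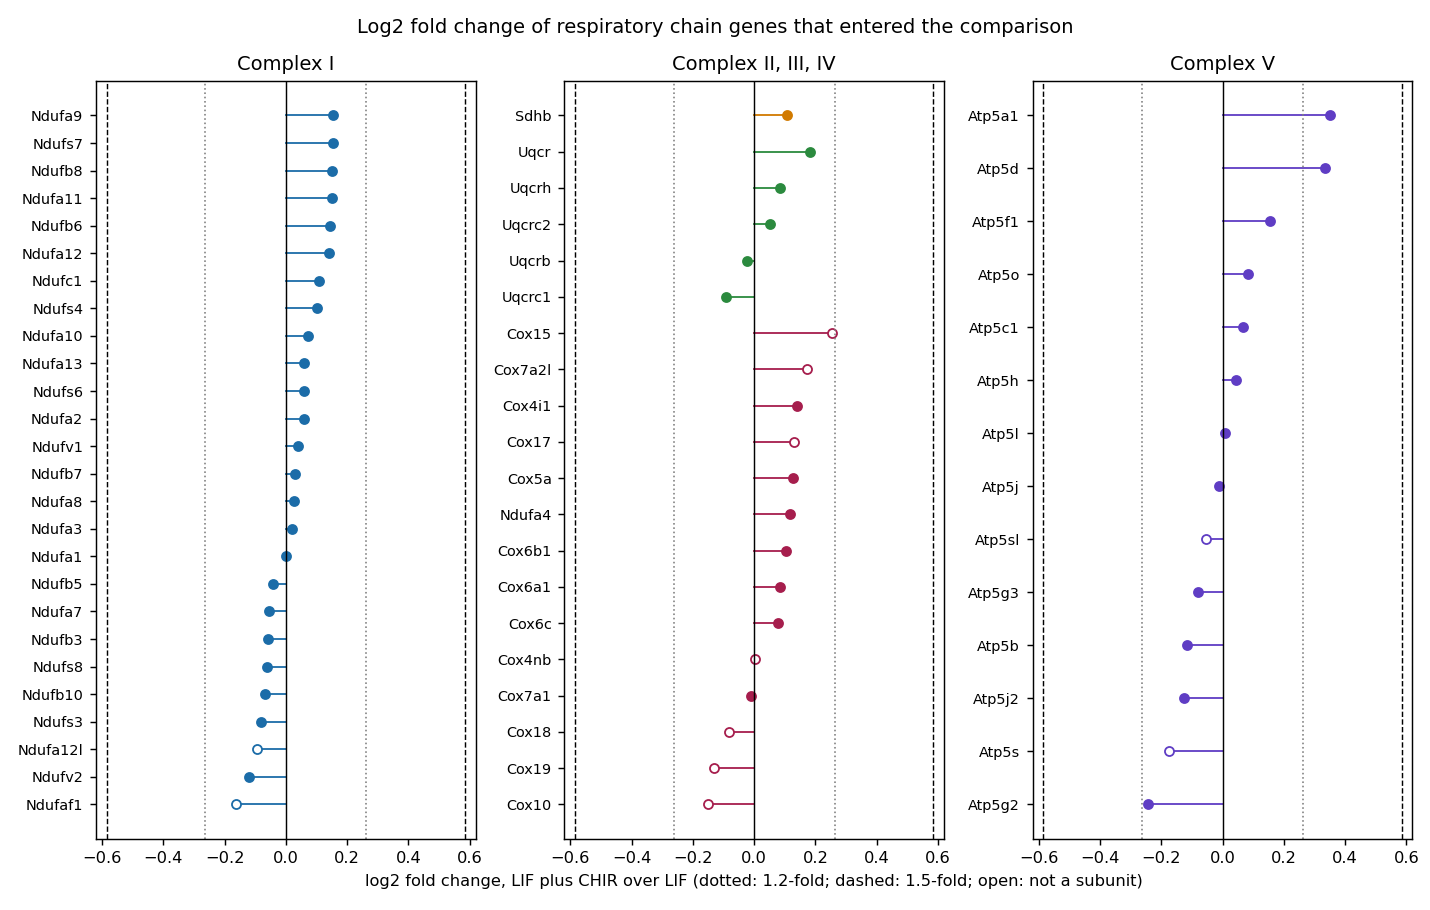
Log2 fold change of LIF plus CHIR over LIF (x) for 60 of the 61 respiratory chain genes that entered the comparison, by complex, with filled points for subunits and open points for assembly factors and other proteins. Dotted lines mark 1.2-fold and dashed lines 1.5-fold, and only Atp5a1 and Atp5d, in the right panel, lie beyond a dotted line.

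Complex I, or NADH dehydrogenase, had 27 of its 36 genes in the comparison, with a median log2 fold change of 0.03 and a range from -0.16 (Ndufaf1) to 0.15 (Ndufa9). Its nuclear core subunits carry the flavin and the iron-sulfur clusters that take electrons from NADH. Ndufv1, which binds NADH and the flavin, had a signal of 13736 in LIF and 14133 in LIF plus CHIR (log2 fold change 0.04). Its neighbour Ndufv2 had 13304 and 12238 (-0.12), the lowest value among the subunits of the complex. Ndufs7, which holds the last cluster before ubiquinone, had 5420 and 6024 (0.15), the highest among the core subunits. Ndufs3 had 3771 and 3563 (-0.08), and Ndufs8, another iron-sulfur protein, had 5496 and 5262 (-0.06). Core subunits thus lay on both sides of 0, each within 1.2-fold. Ndufs1, the largest of the core subunits, had signals of -6.19 and -12.2 and was not detected, so its change was not measured.

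The accessory subunits of complex I surround the core and stabilize it. Of 27 on the array, 19 entered, with a median log2 fold change of 0.06, and 14 of the 19 lay above 0. Ndufa9, a subunit of the peripheral arm, had 11287 in LIF and 12553 in LIF plus CHIR (0.15). Ndufb8 in the membrane arm had 6473 and 7188 (0.15), Ndufa11 had 8137 and 9028 (0.15), and Ndufb6 had 7456 and 8230 (0.14). These were the accessory subunits with the highest values. Each was smaller than the standard deviation over all bright identifiers but above their upper quartile of 0.10. At the other end, Ndufb10 had 172.9 and 164.8 (-0.07) and Ndufb3 had 3819 and 3666 (-0.06). Ndufa1, encoded on the X chromosome, had almost equal signals, 7305 and 7302. Ndufs4 and Ndufs6, accessory proteins of the peripheral arm despite their names, had 0.10 and 0.06. The assembly factors Ndufaf1 (1229 and 1097, -0.16) and Ndufa12l (283.5 and 265.4, -0.09), now named Ndufaf2, were both lower.

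Complex II, succinate dehydrogenase, is the link to the citric acid cycle and could hardly be followed. Only the iron-sulfur subunit Sdhb was detected, with 727.0 in LIF and 783.3 in LIF plus CHIR (0.11). Sdhc, a membrane anchor, had 2159 and 2111 but detection p-values of 0.337 and 0.480, and its plain ratio was -0.03 on the log2 scale. The flavoprotein Sdha had signals of -12.3 and -6.36, and the other anchor Sdhd had 6.40 and 2.74, so that neither was above background.

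Complex III, cytochrome bc1, had 5 of 7 genes in the comparison, with a median log2 fold change of 0.05. The core proteins Uqcrc1 and Uqcrc2, which support the dimer and resemble processing peptidases, differed in sign. Uqcrc1 had 9859 with LIF and 9257 with LIF plus CHIR (-0.09), and Uqcrc2 had 14602 and 15137 (0.05). Among the small subunits, Uqcr (now Uqcr11) had 14779 and 16773 (0.18), the highest value of the complex. The hinge protein Uqcrh, which helps cytochrome c to dock, had 24894 and 26389 (0.08), and Uqcrb, near the ubiquinone site, had 1398 and 1376 (-0.02). The Rieske iron-sulfur protein Uqcrfs1 (11.2 and 8.45) and the small subunit Uqcrq (6.69 and 7.12) were not detected on either array.

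Complex IV, cytochrome c oxidase, had 14 of 24 genes in the comparison. Its 7 entered subunits lay close together, with a median log2 fold change of 0.10, and 6 of the 7 were above 0. Cox4i1, the ubiquitous form of subunit 4, had 19069 in LIF and 20999 in LIF plus CHIR (0.14). Cox5a had 14767 and 16110 (0.13), and Ndufa4 had 24417 and 26453 (0.12). Cox6b1, which faces cytochrome c, had 17186 and 18480 (0.10), Cox6a1 had 17810 and 18883 (0.08) and Cox6c had 1430 and 1509 (0.08). The exception in sign was Cox7a1, the form of subunit 7a known from heart and skeletal muscle, which was clearly detected at 1634 and 1621 (-0.01).

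Several subunits of complex IV exist in forms restricted to certain tissues, and the arrays held most of them. Cox4i2, known from lung, had signals of 3.04 and -5.55. The heart and muscle forms Cox6a2 (-11.4 and -8.54) and Cox8b (-6.46 and -6.12) were below 0 on both arrays, as was the testis form Cox7b2 (-8.75 and -6.48). Cox8c, also a testis form, had 4.09 and 7.37. None of these 5 forms was detected in either condition. The testis form Cox6b2 stood apart from them, with 492.5 in LIF and 548.8 in LIF plus CHIR, although its detection p-values of 0.0524 and 0.0115 were over the limit. Of the ubiquitous forms, Cox7a2 (48.1 and 42.2) and Cox7b (16.6 and -2.45) were not detected. Cox7a2l, related to subunit 7a and known for joining complexes III and IV into supercomplexes, had 5661 and 6383 (0.17).

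Factors that build complex IV ran from -0.15 to 0.25 on the log2 scale, and its subunits from -0.01 to 0.14. Cox15, which makes heme A, had 1410 in LIF and 1681 in LIF plus CHIR (0.25), the highest value of the complex. Cox10, which acts just before Cox15 in heme A synthesis, went the other way with 5701 and 5134 (-0.15). Of the copper and insertion factors, Cox17 had 8104 and 8867 (0.13), Cox18 had 1532 and 1446 (-0.08) and Cox19 had 2179 and 1991 (-0.13), while Cox11 was near background (7.28 and 11.4). Cox17 was detected in LIF plus CHIR alone by its p-values, 0.0269 and 0.0045, despite being bright on both arrays. Cox4nb, a protein of the endoplasmic reticulum whose gene neighbours Cox4i1, had 5284 and 5294 (0.0026).

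Complex V had 14 of 16 genes in the comparison and the widest range of the complexes, from -0.24 to 0.35, around a median of -0.0019. The F1 head binds the nucleotides. Its alpha subunit Atp5a1 had 86.2 with LIF and 109.9 with LIF plus CHIR (0.35, 1.28-fold higher), while the beta subunit Atp5b, its partner in the catalytic ring, had 48004 and 44291 (-0.12). Atp5a1 was thus measured at a dim signal, below the range of 1000 or more used above, and Atp5b well inside it. The delta subunit Atp5d of the central stalk had 4894 and 6167 (0.33, 1.26-fold higher), the highest value among the 54 bright genes. The gamma subunit Atp5c1 had 18566 and 19439 (0.07), and the epsilon subunit Atp5e was not detected (19.5 and 17.3).

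In the membrane part and the peripheral stalk of complex V, 8 of 9 genes entered, 4 above and 4 below 0. Atp5g2 and Atp5g3 encode the same mature c subunit of the proton-driven ring. Atp5g2 had 5501 in LIF and 4645 in LIF plus CHIR (-0.24, or 1.18-fold lower), the lowest value of all 61 genes. Atp5g3 had 39551 and 37410 (-0.08). Atp5j2, subunit f of the membrane part, had 33886 and 31073 (-0.13), and Atp5l, subunit g, had 19457 and 19546 (0.0066). The stalk subunit Atp5f1 had 3549 and 3951 (0.15), Atp5o, which links the stalk to F1, had 8069 and 8555 (0.08), Atp5h had 1668 and 1719 (0.04), and Atp5j had 8589 and 8528 (-0.01). Atp5s, a factor associated with the synthase, had 300.8 and 266.5 (-0.17), and Atp5sl, now named Dmac2 and known as an assembly factor of complex I, had 1711 and 1647 (-0.05). Atp5k, subunit e, was not detected, with 44.6 and 60.7.

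Of the 87 genes, 26 were detected on neither array, and they fell into separate kinds. In 20 of them both signals were under 65, and in 6 of the 20 both were below 0, so no change could be measured. Among the 20 were subunits that every respiring cell uses, such as Sdha, Ndufs1, Ndufab1, Uqcrfs1 and Cox7b, and a signal near background therefore does not show that the RNA was absent. The other 6 (Cox5b, Cox6b2, Ndufa5, Ndufa6, Ndufc2 and Sdhc) had signals above 400 on both arrays. All 6 were among the 18 genes whose detection p-values looked like a combination over several probes. Cox5b, which binds zinc in complex IV, had 9354 (LIF) and 9502 (LIF plus CHIR) with detection p-values of 0.137 and 0.117, and Ndufc2 had 5182 and 5530 with 0.370 and 0.371. Their plain ratios on the log2 scale were 0.02 for Cox5b, 0.16 for Cox6b2, -0.0064 for Ndufa5, -0.10 for Ndufa6 and 0.09 for Ndufc2, all within 1.2-fold. Of the genes that looked like 1 probe, 55 were detected on both arrays and 14 on neither. Each gene had a single identifier, so no value was measured again by a second identifier.

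**Figure D3:**
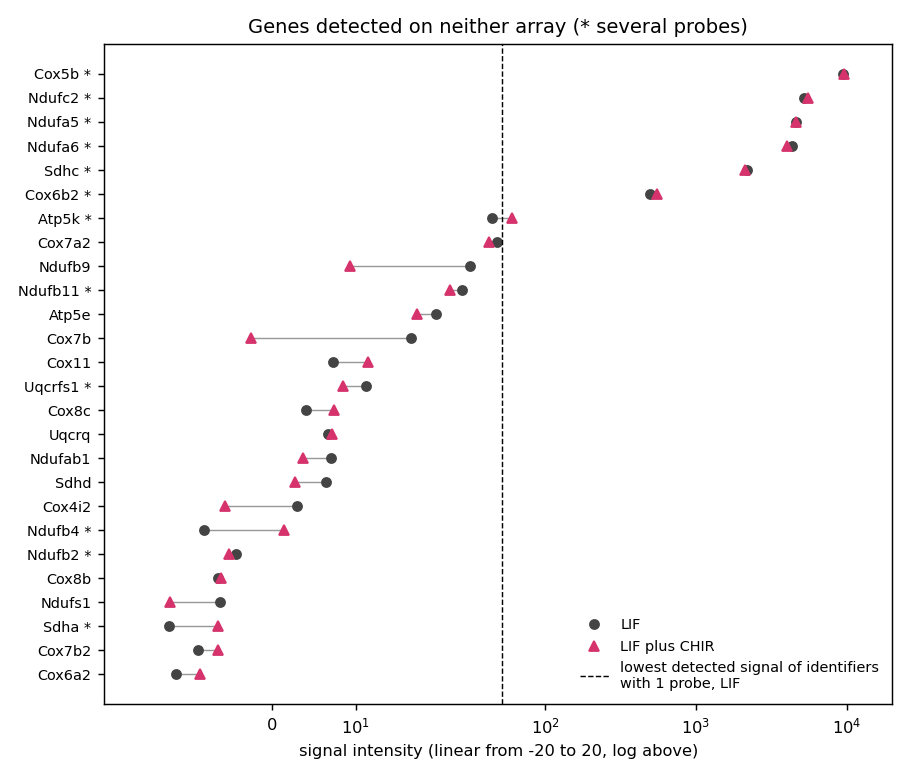
Signal intensity in LIF (circles) and LIF plus CHIR (triangles) of the 26 respiratory chain genes detected on neither array, on an axis that is linear from -20 to 20 and logarithmic above. An asterisk marks genes that look like several probes, and 6 of these have signals above 400 on both arrays, to the right of the dashed line at 51.9, the lowest detected LIF signal of identifiers with 1 probe.

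Median fold changes of genes with and without a promoter match were set side by side, with no test. The 13 entered genes with an NRF1 core had a median log2 fold change of 0.04, from -0.24 (Atp5g2) to 0.18 (Uqcr), and the 38 without it 0.04, from -0.17 to 0.33. With an ETS core, 15 genes had a median of 0.04, against 0.03 for 36 without. With a YY1 core, 7 genes had a median of 0.06, from -0.15 to 0.15, against 0.04 for 44 without, the widest gap of the 3 cores. Of the genes whose cytoband the array annotation gives, 78 in all, 3 lay on the X chromosome (Ndufa1, Ndufb11 and Cox7b), and the 78 were spread over 19 chromosomes.

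Other genes of the pathway were taken from lists chosen by function. In lists this short a count of 0 past 1.5-fold says little, as 4.11% of all entered identifiers passed upwards and 4.02% downwards. Transcripts of mitochondrial DNA encode further core subunits, and 6 of 8 on the array were detected, with a median log2 fold change of 0.09. Cytochrome b of complex III (mt-Cytb) had 27884 with LIF and 28490 with LIF plus CHIR (0.03), and mt-Nd4 of complex I had 21954 and 21841 (-0.0075). mt-Nd1 was almost equal at 2770 and 2771. The dimmer mt-Nd5 (438.8 and 518.0, 0.24), mt-Co2 of complex IV (432.8 and 504.6, 0.22) and mt-Atp6 of complex V (186.5 and 207.0, 0.15) were higher in LIF plus CHIR. All 6 stayed within 1.2-fold.

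Among 7 entered genes of a list of subunits and electron carriers with other names, 0 passed 1.5-fold and 2 were at least 1.2-fold higher. Of these, Cycs, the cytochrome c that carries electrons from complex III to IV, had 1464 with LIF and 1876 with LIF plus CHIR (0.36). The other was 1810027O10Rik, with 3299 and 3972 (0.27), which RefSeq now names Tmem256 and which is not an established subunit, although the list held it. Cyc1, the cytochrome c1 of complex III, had 9094 and 9484 (0.06). Atpif1, the inhibitor of ATP synthase, had 28920 and 25617 (-0.17). Of 12 entered genes of a list of other assembly factors, 0 passed 1.5-fold and 11 (91.7%) lay within 1.2-fold. Their values ran from -0.29 (Pet112l) to 0.25 (Bcs1l, which inserts the Rieske protein into complex III). Pet112l, the gene past 1.2-fold, is not an established assembly factor, although the list held it.

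Of the regulators of mitochondrial genes, 0 of 12 entered genes passed 1.5-fold, with a median log2 fold change of 0.03. Nrf1, whose core is among the promoter matches, had 921.6 in LIF and 1159 in LIF plus CHIR (0.33). Gabpa, the DNA-binding part of the ETS factor, was dim at 84.1 and 73.8 and not detected, and its partner Gabpb1 had 213.0 and 179.7 (-0.24), detected in LIF alone. Yy1 was below 0 on both arrays. Tfam, which packs mitochondrial DNA and helps its transcription to start, had 1518 and 1513 (-0.0047). The mitochondrial RNA polymerase Polrmt had 5291 and 5573 (0.07). The rRNA methyltransferase Tfb1m had 164.3 and 135.7 (-0.28), and the transcription factor Mterf had 1479 and 1251 (-0.24). Of the coactivators, Ppargc1a was not detected (1.97 and -7.04), Ppargc1b had 64.3 and 76.5 (0.25) and Pprc1 had 7269 and 6678 (-0.12). The nuclear receptor Esrra had 399.6 and 415.4 (0.06), and Esrrb had 10986 and 14053 (0.36), the highest value of this list. The polymerase subunits Polg (0.09) and Polg2 (0.01), which copy mitochondrial DNA, differed little.

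Of the enzymes that feed the chain, 0 of 13 entered genes of pyruvate dehydrogenase and the citric acid cycle passed 1.5-fold, with a median of 0.03. Within 1.2-fold lay 12 of the 13 (92.3%). The 4 values below 0 were those of Suclg2, a subunit of succinyl-CoA ligase (-0.15), and of kinases that inhibit pyruvate dehydrogenase, with 2753 in LIF and 2263 in LIF plus CHIR for Pdk1 (-0.28), 147.4 and 127.9 for Pdk4 (-0.21) and 907.5 and 835.2 for Pdk3 (-0.12). Of 8 entered carriers, channels and antioxidant enzymes, 0 passed 1.5-fold and 7 (87.5%) lay within 1.2-fold. They ran from -0.28 (Prdx3, a mitochondrial peroxidase) to 0.19 (the phosphate carrier Slc25a3). Other large protein complexes are given beside these. For the mitochondrial ribosome, 58 of 60 entered genes (96.7%) lay within 1.2-fold around a median of 0.0013, and for the proteasome 22 of 24 (91.7%) around -0.03.

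**Figure D4:**
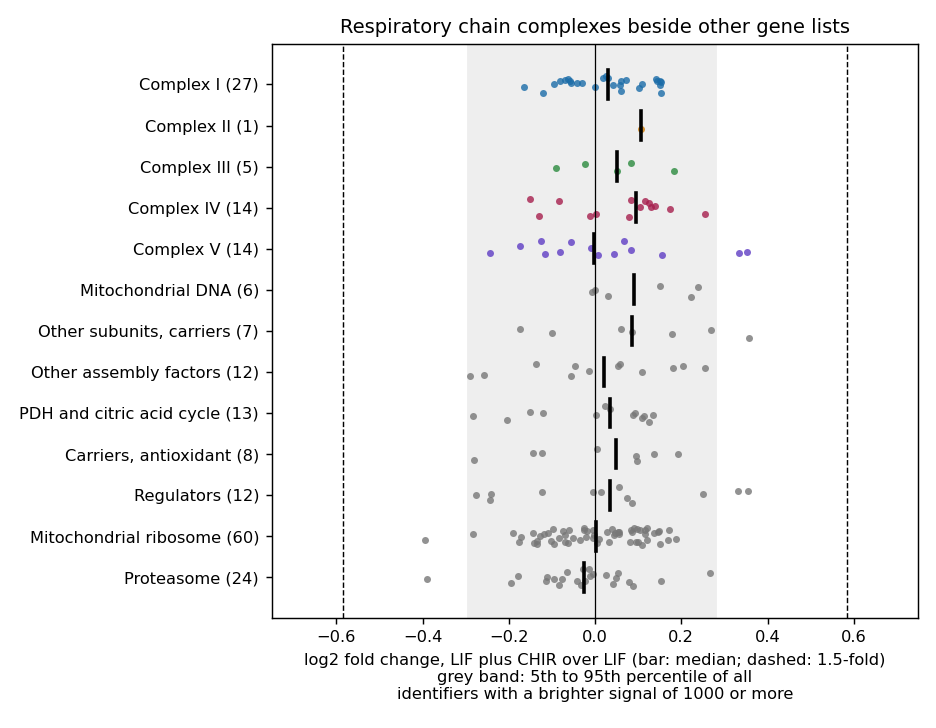
Log2 fold change of LIF plus CHIR over LIF (x) for the entered genes of each respiratory chain complex (coloured) and of 8 other gene lists (grey), with the number of genes in brackets and the median as a black bar. The grey band runs from -0.29 to 0.28, the 5th to 95th percentile of all identifiers with a brighter signal of 1000 or more, and no gene of any list reaches the dashed 1.5-fold lines.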

How the data were processed

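The authors deposited, per gene identifier and array, a signal intensity (with values below 0, so background was subtracted) and its detection p-value. Software and normalization are not given in the sources used here. The longer table (30774 identifiers), named non-normalized, was used. The shorter one (11702), named normalized, holds the same values (0 shared values differed), so whether the signals were normalized is unknown. Detection p-values that step by 1/936 were read as ranks among 936 negative controls, and such identifiers as 1 probe.

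Python 3.11.15 (pandas 2.3.3, numpy 2.4.6) gave the log2 ratio of the arrays (LIF plus CHIR to LIF) for identifiers that either array detected (p-value under 0.01). Signals under the lowest detected signal (15.1 in LIF, 14.8 in LIF plus CHIR) were raised to it. Fold changes past 1.5-fold were counted, and no test was run. The precision is limited by the number of arrays. The calculation was checked on simulated data. RefSeq entries (GRCm38.p6) were matched by Entrez number for 78 genes and by symbol for 9. Normexp correction used limma 3.58.1. The members and lists were chosen with earlier results of these data known. Genes named are those past 1.5-fold, the 3 highest and 3 lowest of each complex, complex II, isoform families, core subunits and regulators of mitochondrial genes. Other genes were named after their values were seen. The values of 1 gene under the rule are not reported here.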

Additional observations from a re-analysis of the deposited data

How the results depend on the processing

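No paired analysis was possible because a single array stands for each condition. Counts of respiratory chain genes past 1.5-fold stayed at 0 in both directions under quantile normalization, scaling to equal medians and normexp correction. Scaling shifted all values alike and by little, with Atp5a1 going from 0.3516 to 0.3501. Normexp correction, with 16 added to each signal, drew ratios towards 0, with Atp5a1 at 0.3012. Neither of these settings could thus be expected to raise a count of 0. A looser detection p-value limit of 0.05 also left both counts at 0. The remaining settings could not raise a count of 0 either. Detection required on both arrays and leaving out assembly factors only removed genes, and a limit of 2-fold is stricter. Plain ratios, a higher minimum signal, the shorter table and averaging by Entrez number left the values of the 61 genes unchanged. A limit of 1.2-fold gave 2 higher and 0 lower. After the data were examined, detection by signal, which adds 7 genes, was tried, and both counts stayed at 0. Counting Ndufa4 with complex I was also tried, which moves a gene between complexes and could not change the counts. No median over all genes or by complex moved by 0.1 or more on the log2 scale under any alternative run. That limit is close to or above the size of each of these medians, so it is a weak check. Within it, the median of complex II went from 0.11 to 0.04 with detection by signal. That of complex III went from 0.05 to 0.08 with quantile normalization. The median of complex V, -0.0019, was 0.00032 with quantile normalization, 0.0066 with detection by signal or the looser limit and 0.02 without assembly factors, so its sign is not settled. Detection by signal gave Atp5k a log2 fold change of 0.45, the highest of any member, at signals near background. Of the 33 named genes with a value, none passed 1.5-fold under any of the 9 alternatives run on genes. Only quantile normalization, scaling to equal medians and normexp correction changed any of their values, so the other settings could not alter this. Complex II rests on 1 detected gene.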

Other observations

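Some identifiers outside the name rule are described by the array annotation as similar to respiratory chain subunits, or as their pseudogenes. The one similar to subunit VIIc of cytochrome c oxidase had a signal of 32782 in LIF and 32362 in LIF plus CHIR (log2 fold change -0.02). The one similar to subunit VIII had 17939 and 17384 (-0.05). An identifier for a pseudogene of what the annotation calls subunit F of ATP synthase, its name for Atp5j, had 9559 and 9589 (0.0045), beside 8589 and 8528 for Atp5j itself, and one similar to Uqcrb had 316.5 and 262.9 (-0.27), beside 1398 and 1376 for Uqcrb. An identifier similar to subunit Ndufb11 was detected, with 122.8 and 111.9 (-0.13), while Ndufb11 itself was not (28.0 and 23.3). Whether probes of such pairs bind each other's RNA was not tested.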
